A study of Mus musculus with 12 samples.

Results

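Ltbp2, Dact1, Cdc42bpg, Tbata, Dao, Il20rb, Crtam, Scnn1g, Ly6d and Chil5 are 10 genes that were chosen because their RNA was much lower in the EED-/- than in the WT mouse cerebellum and because they stand on no list of granule neuron markers. They are 10 of 55385 genes listed in the deposited count table, and all 10 were among the 18091 genes with enough counts to be tested. RNA-seq compared 3 EED-/- libraries, titled cKO 1 to 3, with 3 WT libraries, all from cerebellum of C57BL/6 mice at postnatal day 14. The labels give neither a Cre driver nor the deleted exons, so the cells that lost Eed are not known here. Nor do they say that each library is a separate animal, and p-values therefore describe the spread among these 6 libraries alone. Because the genes were picked on the EED-/- against WT difference, that difference is given below as a description, without a test, and tests are given only for other genes.

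The EED protein belongs to the core of Polycomb repressive complex 2 (PRC2), the enzyme that trimethylates lysine 27 of histone H3 to give the silencing mark H3K27me3. In mammals Polycomb complexes are known to gather at promoters rich in CG dinucleotides and to keep genes of other lineages silent. Most neurons of the cerebellum are granule neurons, whose precursors still divide and whose young cells migrate and mature around the second postnatal week. The 10 genes encode unrelated kinds of protein, among them a matrix protein, signalling proteins, receptors, a channel subunit and enzymes, and several are best known from skin, kidney, thymus or lymphocytes. In bulk tissue, fewer cells of a type and less RNA per cell cannot be told apart.

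Eed itself was at 11.6, 9.31 and 11.3 CPM in EED-/- libraries and 20.1, 26.6 and 23.5 CPM in WT libraries (log2 fold change -1.12, SE 0.154, adjusted p = 0.0015), which follows the genotype labels. CPM are counts per 1000000 after TMM scaling, and every adjusted p comes from the quasi-likelihood test of edgeR, Benjamini-Hochberg adjusted across the tested genes. The libraries held 19621814 to 20366173 estimated counts each, so that 1 CPM is about 20 counts. The tissue label was checked by markers of cerebellar cells, none of which is among the 10 genes. Markers of Purkinje cells summed to 4658 to 6287 CPM in EED-/- and 4529 to 5319 CPM in WT libraries, and those of oligodendrocytes to 19100 to 21549 CPM in EED-/- and 19388 to 23658 CPM in WT libraries. Markers of skeletal muscle summed to 86.8 to 135 CPM in EED-/- and 10.6 to 12.4 CPM in WT libraries. Those of choroid plexus summed to 392 to 819 CPM in EED-/- and 792 to 828 CPM in WT libraries. Those of granule progenitors summed to 350 to 399 CPM in EED-/- and 507 to 568 CPM in WT libraries. The progenitor markers differed in direction. Of 9 tested, 4 were called lower and 1 higher (adjusted p under 0.05), beside 14.1% and 11.7% of all tested genes. The part of these other cells in the values below was not tested.

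The promoter sequences are shown because the genes differ widely in CG content at the start of transcription. RefSeq windows of 250 bases before to 50 bases after the start (GRCm38.p6) were matched for Ltbp2, Dact1, Tbata, Dao, Il20rb, Scnn1g and Chil5, with 3 windows for Dao. The 4 windows below run from the richest to the poorest in CG, read 5′ to 3′ on the strand of the gene, with each CG in capitals. They lie at chr12:71309634-71309933 on the plus strand (Dact1), chr10:61171714-61172013 on the plus strand (Tbata), chr9:100486424-100486723 on the minus strand (Il20rb) and chr3:106032846-106033145 on the minus strand (Chil5).
Dact1: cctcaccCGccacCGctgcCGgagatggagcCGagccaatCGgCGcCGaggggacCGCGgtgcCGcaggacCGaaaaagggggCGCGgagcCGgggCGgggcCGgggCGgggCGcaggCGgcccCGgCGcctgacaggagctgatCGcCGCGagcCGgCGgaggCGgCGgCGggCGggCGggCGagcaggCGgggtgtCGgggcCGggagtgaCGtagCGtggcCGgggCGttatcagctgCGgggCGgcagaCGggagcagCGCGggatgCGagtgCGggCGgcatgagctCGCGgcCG
Tbata: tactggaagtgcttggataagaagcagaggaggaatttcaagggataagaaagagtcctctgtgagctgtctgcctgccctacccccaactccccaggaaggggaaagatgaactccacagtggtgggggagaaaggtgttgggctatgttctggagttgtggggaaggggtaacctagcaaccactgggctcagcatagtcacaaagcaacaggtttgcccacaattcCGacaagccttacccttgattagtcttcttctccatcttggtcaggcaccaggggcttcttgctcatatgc
Il20rb: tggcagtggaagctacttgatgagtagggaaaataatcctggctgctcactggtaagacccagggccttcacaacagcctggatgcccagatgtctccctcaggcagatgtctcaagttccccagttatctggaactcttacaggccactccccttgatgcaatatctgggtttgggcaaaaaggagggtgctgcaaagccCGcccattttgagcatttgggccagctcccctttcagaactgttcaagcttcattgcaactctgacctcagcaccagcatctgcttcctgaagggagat
Chil5: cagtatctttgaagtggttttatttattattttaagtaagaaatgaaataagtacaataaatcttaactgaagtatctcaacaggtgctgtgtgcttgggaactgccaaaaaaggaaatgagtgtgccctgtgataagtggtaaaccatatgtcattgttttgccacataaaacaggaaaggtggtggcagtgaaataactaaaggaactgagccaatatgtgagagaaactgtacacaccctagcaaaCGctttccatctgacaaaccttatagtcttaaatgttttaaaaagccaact

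The Dact1 window held 50 CG dinucleotides, more than 99.1% of all 32851 RefSeq mouse windows of this length, whose median was 7. The median was 13 among the 21263 windows of protein-coding genes, and Dact1 exceeded 98.9% of them. The Tbata, Il20rb and Chil5 windows each held 1 CG, more than 5.43% of windows. Between these extremes Ltbp2 had 20, Scnn1g had 18, and the Dao windows had 6, 3 and 9. Ltbp2 and Scnn1g were above 64.1% and 59.7% of protein-coding windows. The windows thus ran from among the richest in CG to among the poorest. On both strands 3 short motifs were searched, none of which contains another: CAGATG, the kind of E-box that neurogenic bHLH factors such as NEUROD1 bind; TTGGCA, part of the nuclear factor I site; and TATAAA, the TATA box. CAGATG was found 3 times in the Il20rb window and 1 time each in those of Ltbp2, Scnn1g and Chil5, and 17.2% of all windows hold it. TTGGCA was found in the windows of Ltbp2 and Chil5, against 14.1% of all windows. TATAAA was in none of these windows, and 13.6% of all windows hold it. Among protein-coding windows, 14.6% hold CAGATG, 13.1% hold TTGGCA and 12.6% hold TATAAA. A match in letters is a description and not a binding site.

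In every one of the 10 genes all 3 EED-/- libraries lay below all 3 WT libraries, as did 23.8% of all tested genes, and nothing is read from that count because the genes were chosen for it. Log2 fold changes of EED-/- over WT ran between -4.09 and -1.97, with a median of -3.84 beside -0.03 over all tested genes. Means of CPM below carry the SD of the libraries of a genotype (n = 3 each). Among the 16631 tested genes that averaged 1 CPM or more in a genotype, 14 had a log2 fold change at least as negative as the median of the 10 genes, and 177 had a more negative log2 fold change than Cdc42bpg, the least lowered of them, counts that include other genes of the 10. In that order Dao was at rank 7, Il20rb at rank 8, Chil5 at 11, Scnn1g at 13, Ly6d at 14, Tbata at 15, Crtam at 17, Ltbp2 at 27, Dact1 at 67 and Cdc42bpg at 178.

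**Figure D1:**
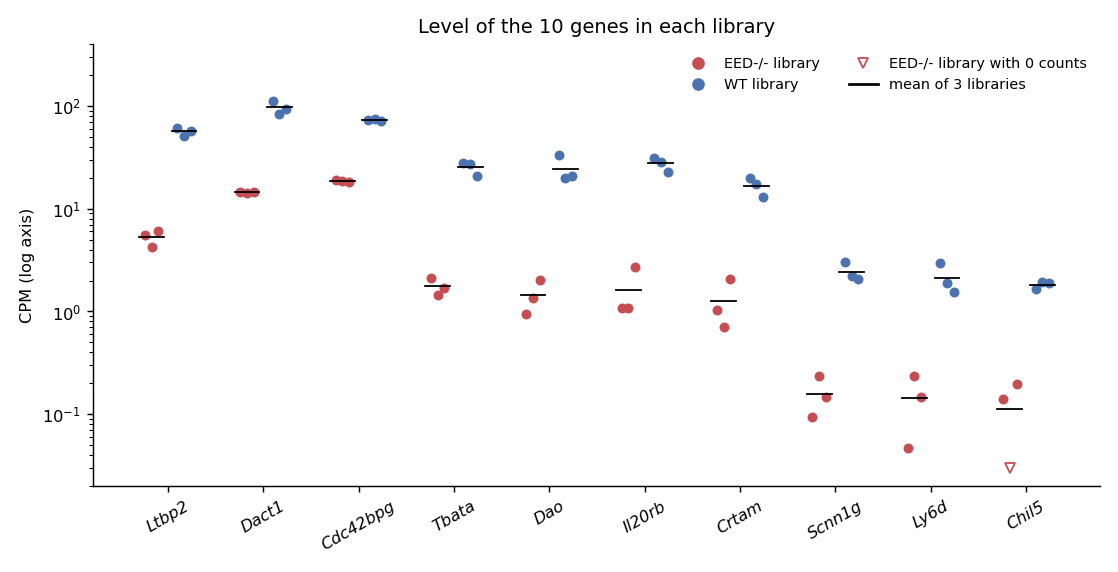
CPM of the 10 genes in each library, on a log axis, with EED-/- libraries left of WT libraries, points for libraries and bars for the mean of 3. In each gene the highest EED-/- library stays below the lowest WT library, and Chil5 had 0 counts in EED-/- library 2.

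Ltbp2 encodes latent TGF-β binding protein 2, a secreted matrix protein that attaches to fibrillin microfibrils and, unlike its relatives, does not bind latent TGF-β. It lies on chromosome 12 (84783212 to 84876532, minus strand, GRCm38). Its level was 5.59, 4.23 and 6.12 CPM in EED-/- libraries 1, 2 and 3, and 60.7, 51.4 and 57.2 CPM in WT libraries 1, 2 and 3. All EED-/- libraries were low and far from the WT range. The means of 5.31 ± 0.972 CPM in EED-/- and 56.4 ± 4.7 CPM in WT libraries gave a log2 fold change of -3.41 (SE 0.162), a 10.6-fold lower level, and the authors' deposited table gives -3.39 (SE 0.186). An antisense gene, D030025P21Rik, overlaps 764 bases of its exons, and 8.87% of the 31-base words of Ltbp2 transcripts also occur in that gene. D030025P21Rik had 2, 1 and 0 counts in EED-/- libraries and 26, 23 and 24 counts in WT libraries (log2 fold change -4.56, SE 0.549, adjusted p = 0.000847 by edgeR's quasi-likelihood test). It was named after its values were seen. The sources used here do not say whether counting was strand-aware, so reads from the overlapping stretch cannot be told apart, which leaves most of the Ltbp2 exon sequence untouched.

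Genes of the other latent TGF-β binding proteins and of microfibrils moved in both directions. Since Ltbp2 was chosen for its fall, nothing is read from how it differs from them. Of 19 such genes tested, 1 was called lower and 9 were called higher (adjusted p under 0.05), beside 14.1% of all tested genes called lower and 11.7% called higher, and their median log2 fold change was 0.69. Fbln2, the matrix protein fibulin 2, rose to 19.7 ± 3.34 CPM in EED-/- libraries, against 5.87 ± 0.734 CPM in WT libraries (log2 fold change 1.74, SE 0.174, adjusted p = 0.000356). Mfap2, a microfibril protein, rose by 1.51 (SE 0.215, adjusted p = 0.00177) and Ltbp1, which anchors latent TGF-β in the matrix, by 1.05 (SE 0.142, adjusted p = 0.00145) on the log2 scale. Markers of meningeal fibroblasts, which make much of this matrix, summed to 871 to 1188 CPM in EED-/- and 389 to 475 CPM in WT libraries, with 7 of 8 called higher, and their part in these rises was not tested. Ltbp3 was at 76.4 ± 10.2 and 91.7 ± 3.64 CPM and Ltbp4 at 70.1 ± 18 and 63.1 ± 7.84 CPM in EED-/- and WT libraries, and neither was called. Ltbp4 turned from a log2 fold change of 0.15 to -0.07 without EED-/- library 2. The called lower gene was Fbn1, fibrillin 1, named after its values were seen (-0.43, SE 0.106, adjusted p = 0.0181). That call was lost without any single EED-/- library or WT library 3, with adjusted p between 0.0528 and 0.0965, and with upper-quartile scaling (adjusted p = 0.0654) or library size alone (adjusted p = 0.0564).

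Dact1 encodes a cytoplasmic partner of Dishevelled that tunes Wnt and planar cell polarity signalling. The gene is on chromosome 12 (71309884 to 71320107, plus strand). Its level was 14.6, 14.2 and 14.5 CPM in EED-/- libraries 1, 2 and 3, and 112, 83.5 and 94.2 CPM in WT libraries 1, 2 and 3. The EED-/- libraries were nearly equal, while WT library 1 stood above the other two. The means of 14.4 ± 0.25 CPM in EED-/- and 96.6 ± 14.5 CPM in WT libraries gave a log2 fold change of -2.74 (SE 0.138), a 6.69-fold lower level. Dact1 shares 34.2% of its 31-base words with the overlapping opposite-strand gene 4930474H06Rik, to which the table assigned no counts outside WT library 3, which had 2.

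Among 20 tested genes of the Wnt and planar polarity machinery, 6 were called lower and 4 higher, with a median log2 fold change of 0.14. Celsr3, an atypical cadherin of planar polarity and axon guidance, fell to 84.3 ± 3.27 CPM in EED-/- libraries, against 180 ± 9.86 CPM in WT libraries (log2 fold change -1.10, SE 0.103, adjusted p = 0.000272). Lef1, a transcription factor of the canonical Wnt pathway, rose to 10.3 ± 1.31 CPM in EED-/- libraries, against 4.93 ± 0.382 CPM in WT libraries (1.06, SE 0.164, adjusted p = 0.00261). Prickle2, another polarity protein, rose by 0.45 (SE 0.102, adjusted p = 0.0137), a call lost without EED-/- library 1 (adjusted p = 0.0663) or WT library 3 (adjusted p = 0.0631). The Dishevelled genes to which Dact1 binds were called lower, Dvl1 by -0.73, Dvl2 by -0.48 and Dvl3 by -0.44, with adjusted p of 0.0196, 0.0251 and 0.0271. These calls were lost without EED-/- library 1 or 3 or WT library 1 or 3, with adjusted p between 0.0622 and 0.121. Upper-quartile scaling and library size alone also ended the Dvl2 and Dvl3 calls, with adjusted p between 0.0707 and 0.0861. The paralogue Dact2 was at 13.8 ± 0.857 CPM in EED-/- and 9.37 ± 1.65 CPM in WT libraries (0.56, SE 0.162, adjusted p = 0.0351), the opposite direction to Dact1. Without EED-/- library 1 or 2 or WT library 2 or 3 the Dact2 call was lost, with adjusted p between 0.0853 and 0.112. Dact3 was at 64.9 ± 12.6 and 55.2 ± 9.2 CPM in EED-/- and WT libraries and was not called. Dact2, Dact3 and the Dishevelled genes were picked for naming with their values known.

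Cdc42bpg encodes MRCKγ, a serine/threonine kinase that binds the small GTPase CDC42 and acts on the actomyosin cytoskeleton. Its locus is on chromosome 19 (6306456 to 6325652, plus strand). Its level was 18.8, 18.5 and 18.1 CPM in EED-/- libraries 1, 2 and 3, and 72.1, 74 and 71 CPM in WT libraries 1, 2 and 3. It had the least spread of the 10 genes in WT libraries, and its spread in EED-/- libraries was about as small as that of Dact1. The means of 18.5 ± 0.366 CPM in EED-/- and 72.4 ± 1.56 CPM in WT libraries gave a log2 fold change of -1.97 (SE 0.101), a 3.91-fold lower level. None of its 31-base words occurs in another gene.

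Of 23 tested genes around CDC42 and the MRCK kinases, 5 were called lower and 4 higher, with a median log2 fold change of -0.11. Lurap1, an adaptor that activates MRCK kinases, fell to 23.1, 19.2 and 25.2 CPM in EED-/- libraries, against 140, 118 and 105 CPM in WT libraries (log2 fold change -2.43, SE 0.156, adjusted p = 5.12e-05). Its libraries did not overlap between the genotypes. Of the CDC42 effectors, which act on septins and actin, Cdc42ep4 fell by 1.18 (SE 0.132, adjusted p = 0.000606) and Cdc42ep3 fell by 1.05 (SE 0.158, adjusted p = 0.00235) on the log2 scale. Of the sister kinases, Cdc42bpa was at 318 ± 26.6 CPM in EED-/- and 368 ± 50.8 CPM in WT libraries and was not called (adjusted p = 0.288). Cdc42bpb was called lower by a small amount (-0.48, SE 0.126, adjusted p = 0.0249). That call was lost without any single EED-/- library or WT library 1 or 3 (adjusted p between 0.0574 and 0.113). It was also lost with upper-quartile scaling (adjusted p = 0.0758) or library size alone (adjusted p = 0.0706). Both kinases were named after their values were seen.

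**Figure D2:**
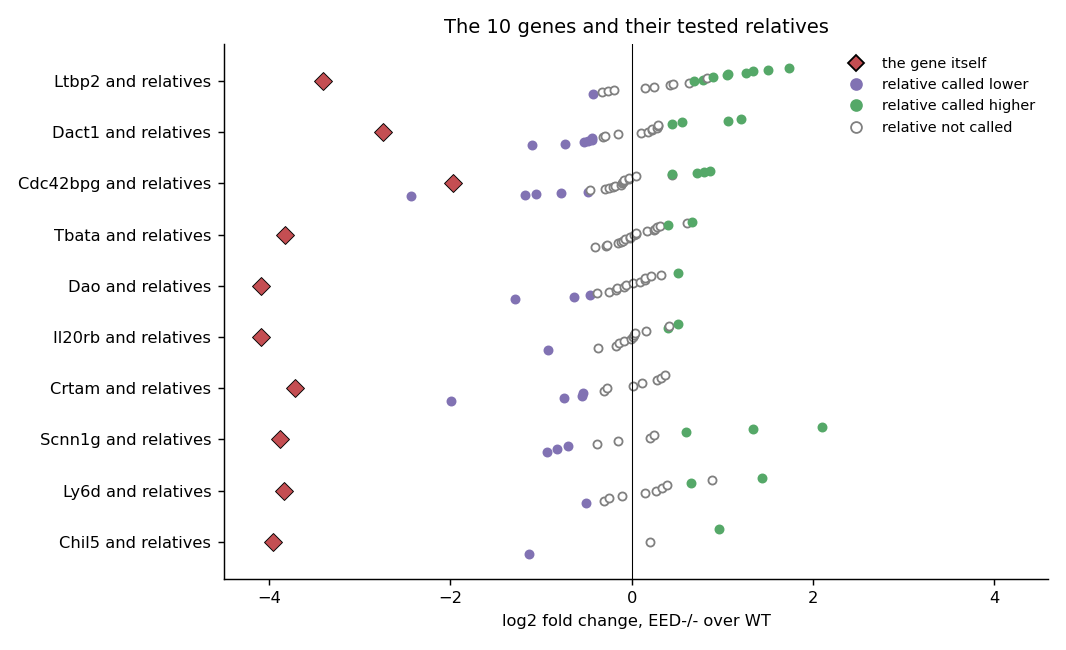
Log2 fold change of EED-/- over WT for the tested relatives of each of the 10 genes, with called lower, called higher and not called genes marked and the gene itself shown beside its relatives. Most relatives lie near 0, and the relatives as a whole have a median of 0.02.

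Il20rb encodes the shared β subunit of the receptors for interleukins 19, 20 and 24, which pairs with IL20RA or IL22RA1 and is best known from skin keratinocytes. In GRCm38 it occupies chromosome 9 (100457719 to 100486788, minus strand). Its level was 1.09, 1.08 and 2.69 CPM in EED-/- libraries 1, 2 and 3, and 31.3, 28.4 and 22.9 CPM in WT libraries 1, 2 and 3. EED-/- library 3 was the highest of its genotype and WT library 3 the lowest of its own, and the groups stayed far apart. The means of 1.62 ± 0.928 CPM in EED-/- and 27.5 ± 4.29 CPM in WT libraries gave a log2 fold change of -4.09 (SE 0.337), a 17-fold lower level. The subunits it pairs with were scarce in both genotypes. Il20ra was at 0.189, 0.47 and 0.538 CPM in EED-/- and 0.205, 0.376 and 0.103 CPM in WT libraries, and Il22ra1 had 2, 3 and 2 counts in EED-/- and 0, 1 and 3 counts in WT libraries. Both had too few counts to be tested and were named after their values were seen.

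Of 20 related cytokine, receptor and JAK-STAT genes, 13 were tested, with 1 called lower, 2 called higher and a median log2 fold change of 0.02. Socs3, which is induced by STAT3 and feeds back on these receptors, fell to 4.1 ± 0.455 CPM in EED-/- libraries, against 7.77 ± 0.303 CPM in WT libraries (log2 fold change -0.92, SE 0.162, adjusted p = 0.00448). Il10rb and Ifngr1, receptor subunits for interleukin 10 and interferon γ, were called higher by 0.51 (SE 0.149, adjusted p = 0.0356) and 0.40 (SE 0.118, adjusted p = 0.0388). Each of these rises was lost without EED-/- library 1 or 2 or WT library 3, with adjusted p between 0.094 and 0.127. The Ifngr1 call was also lost without EED-/- library 3 (adjusted p = 0.0595) or WT library 2 (adjusted p = 0.0931). Microglial markers, whose cells express these receptors, summed to 251 to 273 CPM in EED-/- and 136 to 148 CPM in WT libraries, and their part in these rises was not tested.

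Crtam encodes an immunoglobulin-family adhesion receptor of activated cytotoxic lymphocytes that binds CADM1. It lies on chromosome 9 (40969691 to 41004628, minus strand). Its level was 1.04, 0.705 and 2.06 CPM in EED-/- libraries 1, 2 and 3, and 20.1, 17.3 and 12.9 CPM in WT libraries 1, 2 and 3. As with Il20rb, EED-/- library 3 was the highest and WT library 3 the lowest of its genotype. The means of 1.27 ± 0.703 CPM in EED-/- and 16.8 ± 3.6 CPM in WT libraries gave a log2 fold change of -3.72 (SE 0.356), a 13.2-fold lower level. Lymphocyte markers were low in both genotypes. The 16 of them summed to 7.34 to 10.8 CPM in EED-/- and 5.17 to 6.55 CPM in WT libraries, below the level of Crtam alone in every WT library. Of these, 4 had enough counts to be tested, with 0 called lower and 1 higher. The higher one was Ptprc, which encodes CD45 and is also expressed by microglia, with 71, 96 and 147 counts in EED-/- and 22, 53 and 34 counts in WT libraries (1.39, SE 0.385, adjusted p = 0.0297). That call was lost without EED-/- library 2 (adjusted p = 0.0671), EED-/- library 3 (adjusted p = 0.0813), WT library 1 (adjusted p = 0.0555) or WT library 3 (adjusted p = 0.103). Trac, of the T cell receptor, had 34, 23 and 15 counts in EED-/- and 37, 20 and 17 counts in WT libraries. The scarcest were Cd3g, Cd8a, Cd8b1, Nkg7, Gzmb and Ncr1, with under 10 counts each over all 6 libraries. Ptprc, Trac and these scarcest markers were named with their values known.

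Of 14 nectin-family and nectin-like genes, 11 were tested, and 4 were called lower and 0 higher, with a median log2 fold change of -0.27. Cadm3, a neuronal synaptic adhesion molecule, fell to 382, 339 and 400 CPM in EED-/- libraries, against 1727, 1364 and 1369 CPM in WT libraries (log2 fold change -1.99, SE 0.14, adjusted p = 7.41e-05). The direct partner of CRTAM, Cadm1, was at 138, 127 and 142 CPM in EED-/- and 110, 141 and 126 CPM in WT libraries, and these ranges overlap. Cadm1 was not called (0.11, SE 0.122, adjusted p = 0.567) and was named after its values were seen. Afdn, which links nectins to actin, fell by 0.54 (SE 0.0972, adjusted p = 0.00493) and Nectin3 fell by 0.75 (SE 0.184, adjusted p = 0.0189) on the log2 scale. The Nectin3 call was lost without EED-/- library 1 (adjusted p = 0.0696), EED-/- library 2 (adjusted p = 0.0707) or WT library 3 (adjusted p = 0.0645).

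Ly6d encodes a small GPI-anchored surface protein known from keratinocytes and from lymphoid progenitors set on the B lineage. Its locus is on chromosome 15 (74762056 to 74763620, minus strand). It had 1, 5 and 3 counts in EED-/- libraries 1, 2 and 3, and 58, 35 and 30 counts in WT libraries 1, 2 and 3. WT library 1 was the highest and EED-/- library 1 the lowest, and the groups did not overlap. At 0.143 ± 0.094 CPM in EED-/- and 2.13 ± 0.746 CPM in WT libraries the log2 fold change was -3.84 (SE 0.493). Summed counts gave a 14.9-fold lower level, with a 95% interval of 7.62 to 33.4 that covers counting error only. This interval, like those of Scnn1g and Chil5 below, leaves out that the gene was chosen for its fall, and it is no test. Of 20 other genes of the LY6 family, 11 were tested, with 1 called lower, 2 higher and a median log2 fold change of 0.27. Lypd6b and Lypd1, which modulate nicotinic acetylcholine receptors, rose by 1.44 (SE 0.213, adjusted p = 0.00216) and 0.65 (SE 0.11, adjusted p = 0.00388). Ly6e, a widely expressed surface protein, was called lower (-0.50, SE 0.129, adjusted p = 0.0227). That call was lost without any single EED-/- library or WT library 1, with adjusted p between 0.0522 and 0.0929. It was also lost with upper-quartile scaling (adjusted p = 0.0652) or library size alone (adjusted p = 0.0561).

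Markers of surface epithelium, the other tissue in which Ly6d, Il20rb and Scnn1g are known, overlapped between the genotypes in their sum. The 12 markers summed to 12 to 15.6 CPM in EED-/- and 13.3 to 14.4 CPM in WT libraries. The part of such cells in the levels of those genes was not tested. Of 8 tested, 2 were called lower and 1 higher. The basal keratin Krt5 had 0 counts in all libraries, and Krt14 and Cldn4 had under 10 counts each over all libraries. Krt5, Krt14 and Cldn4 were named after their values were seen.

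Scnn1g encodes the γ subunit of the epithelial sodium channel, which with the α and β subunits takes up sodium in the kidney collecting duct and other epithelia. The gene is on chromosome 7 (121734479 to 121768475, plus strand). It had 2, 5 and 3 counts in EED-/- libraries 1, 2 and 3, and 59, 41 and 40 counts in WT libraries 1, 2 and 3. The EED-/- libraries held a handful of counts each, and the WT libraries were all higher. At 0.159 ± 0.071 CPM in EED-/- and 2.43 ± 0.52 CPM in WT libraries the log2 fold change was -3.88 (SE 0.385). Summed counts gave a 15.3-fold lower level, with a 95% counting interval of 8.08 to 32.6. The partner subunits were also low in WT libraries. Scnn1a, the α subunit, was at 2.79, 2.73 and 2.79 CPM in EED-/- and 2.51, 2.52 and 1.96 CPM in WT libraries, and was not called (0.25, SE 0.206, adjusted p = 0.42). Scnn1b, the β subunit, had 1, 6 and 2 counts in EED-/- and 14, 17 and 9 counts in WT libraries, too few to be tested, with no overlap between the genotypes. Both subunits were named after their values were seen.

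Of 15 genes of the channel family and its regulators, Scnn1a and Scnn1b among them, 10 were tested, and 3 were called lower and 3 higher, with a median log2 fold change of 0.02. Nedd4l, the ubiquitin ligase that removes the sodium channel from the surface, fell to 81.2 ± 5.39 CPM in EED-/- libraries, against 154 ± 17.5 CPM in WT libraries (log2 fold change -0.93, SE 0.122, adjusted p = 0.00126). Among the acid-sensing channels of the same superfamily, Asic2 fell by 0.82 (SE 0.167, adjusted p = 0.00867) and Asic4 rose by 2.10 (SE 0.301, adjusted p = 0.00221) on the log2 scale. Asic4 was at 34.6, 30.7 and 19.4 CPM in EED-/- and 4.1, 7.14 and 8.48 CPM in WT libraries.

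Dao encodes D-amino acid oxidase, a peroxisomal flavoenzyme that breaks down D-serine, a co-agonist of NMDA receptors, and is known for its high activity in the hindbrain and cerebellum. In GRCm38 it occupies chromosome 5 (114003703 to 114025682, plus strand). Its level was 0.947, 1.36 and 2.01 CPM in EED-/- libraries 1, 2 and 3, and 33, 19.9 and 20.8 CPM in WT libraries 1, 2 and 3. WT library 1 stood well above the other two, and every EED-/- library was far below them. The means of 1.44 ± 0.534 CPM in EED-/- and 24.6 ± 7.31 CPM in WT libraries gave a log2 fold change of -4.09 (SE 0.312), a 17-fold lower level. Astrocytes and Bergmann glia are known to hold this enzyme, and their 12 markers summed to 5161 to 6998 CPM in EED-/- and 6246 to 6518 CPM in WT libraries, ranges that overlap. The members of that list differed in direction, with 4 called lower and 2 higher, and all 6 were named with their values known. Gdf10, a growth factor of Bergmann glia, fell by 1.84 (SE 0.206, adjusted p = 0.000633), the glutamate transporter Slc1a3 fell by 1.49 (SE 0.114, adjusted p = 0.000108) and Hopx fell by 0.96 (SE 0.136, adjusted p = 0.00177) on the log2 scale. Gfap, the intermediate filament of astrocytes, rose by 1.16 (SE 0.243, adjusted p = 0.0108). The calls of Slc4a4 (-0.37, SE 0.105, adjusted p = 0.0311) and Gja1 (0.40, SE 0.105, adjusted p = 0.0247) were each lost without EED-/- library 1 or 2 or WT library 3, with adjusted p between 0.068 and 0.154. Without EED-/- library 3 or WT library 2 the Slc4a4 call was lost as well, with adjusted p of 0.0721 and 0.0654. Upper-quartile scaling (adjusted p = 0.121) and library size alone (adjusted p = 0.0816) ended it too. The part of these glial cells in the level of Dao was not tested.

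Of 16 tested genes of D-amino acid, glycine and serine metabolism, 3 were called lower and 1 higher, with a median log2 fold change of -0.07. Gldc, the glycine-decarboxylating subunit of the glycine cleavage system, fell to 10.4 ± 2.1 CPM in EED-/- libraries, against 25.5 ± 3.72 CPM in WT libraries (log2 fold change -1.29, SE 0.182, adjusted p = 0.00176). Ddo, the D-aspartate oxidase related to Dao, fell by 0.64 (SE 0.137, adjusted p = 0.0106), a call lost without EED-/- library 1 (adjusted p = 0.0574). Slc1a4, a transporter of neutral amino acids that include serine, was called higher (0.51, SE 0.122, adjusted p = 0.0164). That call was lost without EED-/- library 1 (adjusted p = 0.0701), EED-/- library 2 (adjusted p = 0.0622) or WT library 3 (adjusted p = 0.0536). Srr, the racemase that makes D-serine, was at 69.6 ± 1.87 CPM in EED-/- and 78.6 ± 4.5 CPM in WT libraries and was not called (-0.17, SE 0.101, adjusted p = 0.243). It was named after its values were seen.

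Chil5 encodes a chitinase-like protein. The locus occupies chromosome 3 (106016919 to 106032814, minus strand). It had 3, 0 and 4 counts in EED-/- libraries 1, 2 and 3, and 32, 36 and 37 counts in WT libraries 1, 2 and 3. The WT libraries were close to each other and well above the EED-/- libraries. At 0.113 ± 0.101 CPM in EED-/- and 1.83 ± 0.162 CPM in WT libraries the log2 fold change was -3.96 (SE 0.561). Summed counts gave a 16.4-fold lower level, with a 95% counting interval of 7.68 to 41.8. Chil5 shares 17.7% of its 31-base words with the opposite-strand gene Gm42722, which had 3, 0 and 0 counts in EED-/- and 1, 6 and 0 counts in WT libraries. Of 8 relatives, 3 were tested, with 1 called lower, 1 higher and a median log2 fold change of 0.20. Chil1, a chitinase-like protein of reactive astrocytes and macrophages, rose by 0.96 (SE 0.156, adjusted p = 0.00332), and Ovgp1, an oviductal glycoprotein of the same family, fell by 1.13 (SE 0.196, adjusted p = 0.00433) on the log2 scale. Ovgp1 lies 29496 bases from Chil5 and is also counted among the chromosomal neighbours called lower below.

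Tbata, also called Spatial, encodes a protein named for its expression in thymus, brain and testis, which in mouse thymic stroma was reported to inhibit the NEDD8 conjugation enzyme UBA3. In GRCm38 the gene sits on chromosome 10 (61171954 to 61188841, plus strand). Its level was 2.13, 1.46 and 1.71 CPM in EED-/- libraries 1, 2 and 3, and 27.8, 27.3 and 20.7 CPM in WT libraries 1, 2 and 3. WT library 3 was the lowest of its genotype but still far above the EED-/- libraries. The means of 1.77 ± 0.339 CPM in EED-/- and 25.2 ± 3.92 CPM in WT libraries gave a log2 fold change of -3.83 (SE 0.203), a 14.2-fold lower level. Of 20 tested genes of the NEDD8 pathway, 0 were called lower and 2 higher, with a median log2 fold change of 0.04. The 2 were the NEDD8 ligase subunits Dcun1d4 (0.67, SE 0.151, adjusted p = 0.0135) and Dcun1d5 (0.40, SE 0.125, adjusted p = 0.0477). The Dcun1d4 call was lost without EED-/- library 1 (adjusted p = 0.0636). The Dcun1d5 call was lost without any single EED-/- library or WT library 1 or 3, with adjusted p between 0.0508 and 0.167.

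Over the 10 lists of relatives together, 146 of 175 genes were tested, and 25 (17.1%) were called lower and 28 (19.2%) higher, beside 14.1% and 11.7% of all tested genes. Their median log2 fold change was 0.02. Without EED-/- library 1, 2 or 3 or WT library 1, 2 or 3 the lower calls numbered 13, 19, 16, 17, 23 and 16, and the higher calls 15, 16, 28, 31, 26 and 15. Higher calls made up 52.8% of the calls with TMM scaling, 68.6% with upper-quartile scaling and 67.3% with scaling by library size. These alternatives raised the median log2 fold change of all tested genes by 0.117 and 0.100.

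Compared per kilobase of exon, WT levels put Dact1 first at 25.7 CPM per kb, with libraries between 22.2 and 29.8, and Cdc42bpg next at 11.9, with libraries between 11.6 and 12.1. Tbata (10.4), Dao (8.32), Ltbp2 (6.9) and Il20rb (6.55 CPM per kb) followed, and each overlapped the next of them in its library range. Crtam (3.26) and Ly6d (2.87 CPM per kb) overlapped each other as well, while Chil5 (1.21) and Scnn1g (0.813 CPM per kb) came last without overlap. In EED-/- libraries Dact1 and Cdc42bpg were again first, at 3.84 and 3.03 CPM per kb, and the other 8 genes were between 0.0531 and 0.728 CPM per kb.

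**Figure D3:**
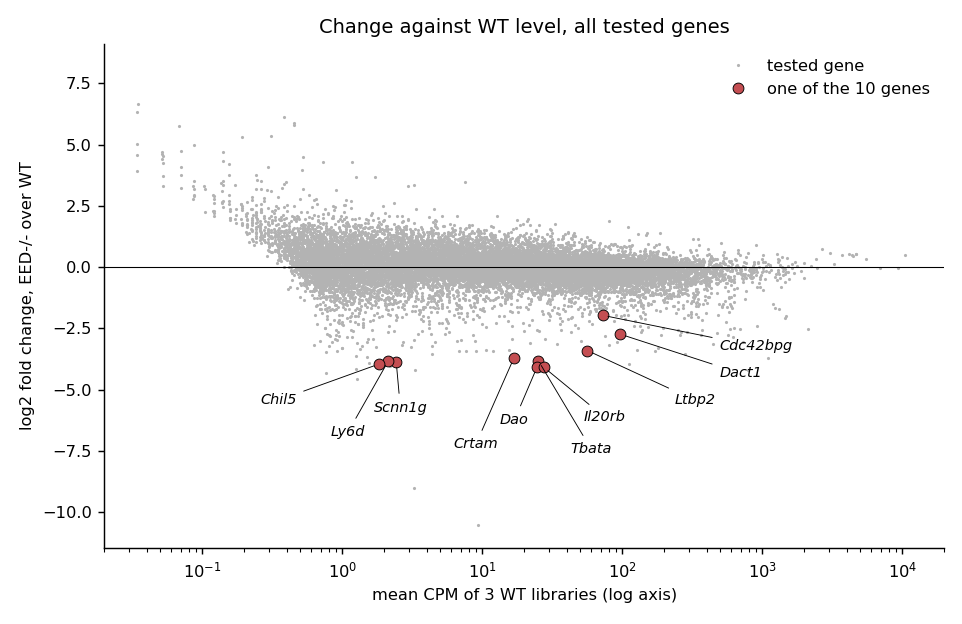
Log2 fold change of EED-/- over WT against the mean WT level in CPM (log axis) for tested genes with a WT mean above 0, in grey, with the 10 genes in red. The 10 genes lie at the lower edge of the cloud over WT levels between 1.83 and 96.6 CPM.

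Counting noise is wide at few counts, and 7 of the 10 genes had between 7 and 111 counts in all in the EED-/- libraries, so their spread there is not set against that of other genes. Over all 10 genes the median SD of log2 CPM, with a prior count of 2, was 0.45 in EED-/- and 0.23 in WT libraries. The EED-/- SD was 0.83 for Chil5, 0.72 for Crtam and 0.71 for Il20rb, with 7, 79 and 101 counts. It was 0.02 for Dact1 and 0.03 for Cdc42bpg, with 907 and 1161 counts. WT library 1 was the highest WT library for 8 of the 10 genes, against 40% of all tested genes, and EED-/- library 3 was the highest EED-/- library for 5 of the 10, against 39.8%. In single EED-/- libraries Cdc42bpg was at 25% to 26% of its WT mean, Dact1 at 14.7% to 15.1%, and the other 8 genes at 0% to 12.3%.

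Granule neuron markers moved with these genes. The 20 markers, none of which is among the 10 genes, summed to 1769 to 2154 CPM in EED-/- and 7965 to 9736 CPM in WT libraries, a 4.45-fold lower sum, and 19 of 20 were called lower. The sum was at 22.4%, 20.3% and 24.7% of the WT mean in EED-/- libraries 1, 2 and 3, and 112%, 97.1% and 91.3% in WT libraries 1, 2 and 3. Cdc42bpg was slightly above the marker sum in each EED-/- library, and the other 9 genes were below it in each. Among the most abundant markers, the cadherin Fat2 fell by 3.73 (SE 0.261, adjusted p = 9.03e-05), the granule cell cerebellin Cbln3 fell by 4.20 (SE 0.372, adjusted p = 0.000348) and the transcription factor Zic1 fell by 2.41 (SE 0.127, adjusted p = 3.66e-05) on the log2 scale. The part of granule neuron number in the lower levels of the 10 genes was not tested.

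**Figure D4:**
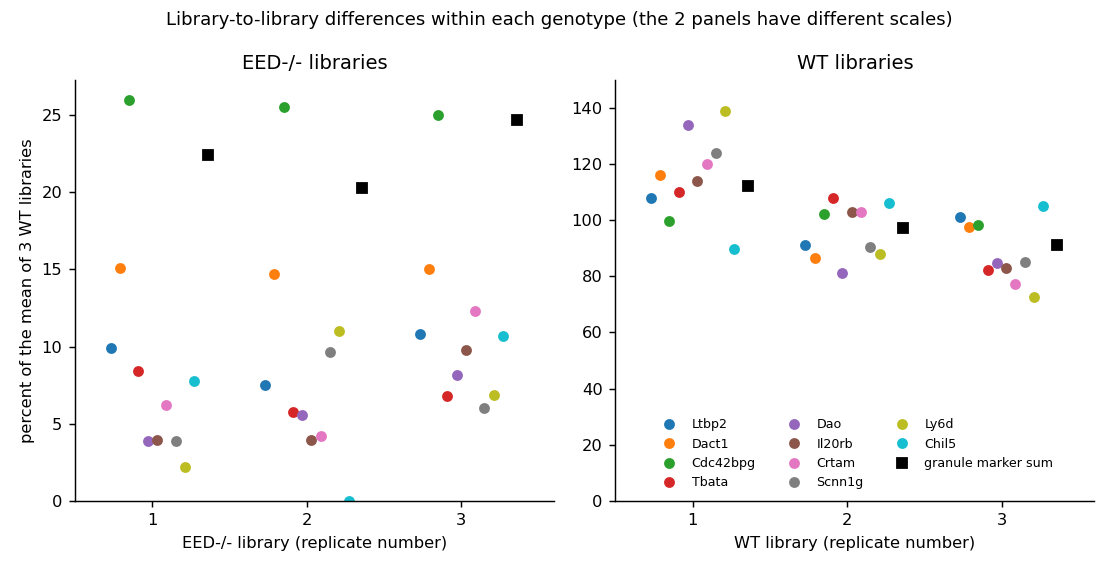
Level of each of the 10 genes, and of the granule neuron marker sum (black squares), in each library as a percent of the mean of the 3 WT libraries, with EED-/- libraries left and WT libraries right on their own scales. Only Cdc42bpg lies above the marker sum in EED-/- libraries, and points of 1 library are set apart sideways for legibility.

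The genes whose profile over the 6 libraries was most like that of a member were searched among 14344 tested genes, by the Euclidean distance of log2 CPM centred on its mean. This is a description, since genes lowered to the same extent come out as close. Dact1 was closest to Neurod2 (distance 0.133), a bHLH factor of differentiating neurons, which was at 27.7, 28.9 and 26.9 CPM in EED-/- and 221, 170 and 179 CPM in WT libraries. Ltbp2 was closest to Mybpc3 (0.192), a myosin-binding protein known from heart muscle, which was at 19.6, 13.7 and 20.8 CPM in EED-/- and 206, 165 and 168 CPM in WT libraries. Cdc42bpg was closest to Chd7 (0.217), a chromatin remodeller. Less close were the matches of Scnn1g to Hkdc1 (0.445), of Crtam and Dao to Fat2 (0.512 and 0.563), of Ly6d to Scn11a (0.562), of Il20rb to Cbln3 (0.593), of Tbata to the GABA-A receptor subunit Gabrd (0.667) and of Chil5 to Neurod1 (0.695). Neurod2, Fat2, Cbln3, Gabrd and Neurod1 are on the granule neuron marker list. The mean profile of the 10 genes was closest to Il16 (0.26), Car9 (0.322), Mybpc3 (0.369), Galnt15 (0.44), Cbln1 (0.514), Hkdc1 (0.517), Sebox (0.523) and Neurod1 (0.561). Among the 10 genes themselves, Scnn1g and Ly6d were the closest pair (0.43), followed by Il20rb and Crtam (0.614), and Cdc42bpg and Il20rb were the farthest apart (2.86). Scnn1g and Ly6d had 10 and 9 counts in all in EED-/- libraries. At so few counts the prior count of 2, added before taking logs, narrows differences between profiles.

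Of the 3 nearest protein-coding genes on each side, 60 in all, 47 were tested. Of these, 11 (23.4%) were called lower and 3 (6.38%) higher, beside 14.1% and 11.7% of all tested genes, and their values ran between -1.37 and 2.37 with a median of -0.16. Without EED-/- library 1 the lower calls numbered 4 and without EED-/- library 3 they numbered 5. Upper-quartile scaling left 7. Of the neighbours called lower with all libraries, Ppp2r5b, Atg2a, Ehd1 and Sf1 all lie beside Cdc42bpg, so that share rests in good part on a single locus. Ppp2r5b, Atg2a and Sf1 were named after their values were seen. The Ppp2r5b call was lost without any single EED-/- library, with adjusted p between 0.0567 and 0.0889. Upper-quartile scaling (adjusted p = 0.0599) and library size alone (adjusted p = 0.0525) ended it too. The Atg2a and Sf1 calls were lost without EED-/- library 1 or 3, with adjusted p between 0.0573 and 0.0823. The 13 neighbours with too few counts to be tested include Scnn1b, the gene next to Scnn1g at a distance of 96563 bases, which averaged 0.142 CPM in EED-/- and 0.698 CPM in WT libraries with no overlap. The libraries of the other untested neighbours overlapped between the genotypes or had 0 counts. Of the tested neighbours, the most lowered was Unc5b, a netrin receptor whose gene lies 340373 bases from Tbata, at 56.8, 78.7 and 59.1 CPM in EED-/- and 181, 157 and 165 CPM in WT libraries (log2 fold change -1.37, SE 0.148, adjusted p = 0.000514). Near Ltbp2, Syndig1l, a synaptic membrane protein, was at 26.6, 26.6 and 22.9 CPM in EED-/- and 71.2, 53.6 and 61.2 CPM in WT libraries (-1.29, SE 0.136, adjusted p = 0.000464). Both were named after their values were seen. The neighbour with the highest log2 fold change was Sox14, a transcription factor of GABAergic neurons of the midbrain and diencephalon, the nearest tested gene before Il20rb at a distance of 581549 bases. It rose to 4.78, 3.39 and 3.52 CPM in EED-/- libraries, against 0.41, 1.07 and 0.775 CPM in WT libraries (2.37, SE 0.34, adjusted p = 0.00188). Of the 20 nearest tested genes, 1 on each side of each gene, 3 were called lower, 1 higher and 16 were not called, those between -0.36 and 0.74. The lower ones were 2700049A03Rik beside Dact1 (-0.65, SE 0.138, adjusted p = 0.0099), Ehd1 beside Cdc42bpg (-0.62, SE 0.155, adjusted p = 0.0195) and Ssh1 beside Dao (-0.45, SE 0.102, adjusted p = 0.0137). The Ehd1 call was lost without EED-/- library 1 (adjusted p = 0.0861) or 3 (adjusted p = 0.0863). The Ssh1 call was lost without EED-/- library 1 (adjusted p = 0.0817), EED-/- library 3 (adjusted p = 0.0563) or WT library 3 (adjusted p = 0.0518). Upper-quartile scaling ended it too (adjusted p = 0.0505).

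**Figure D5:**
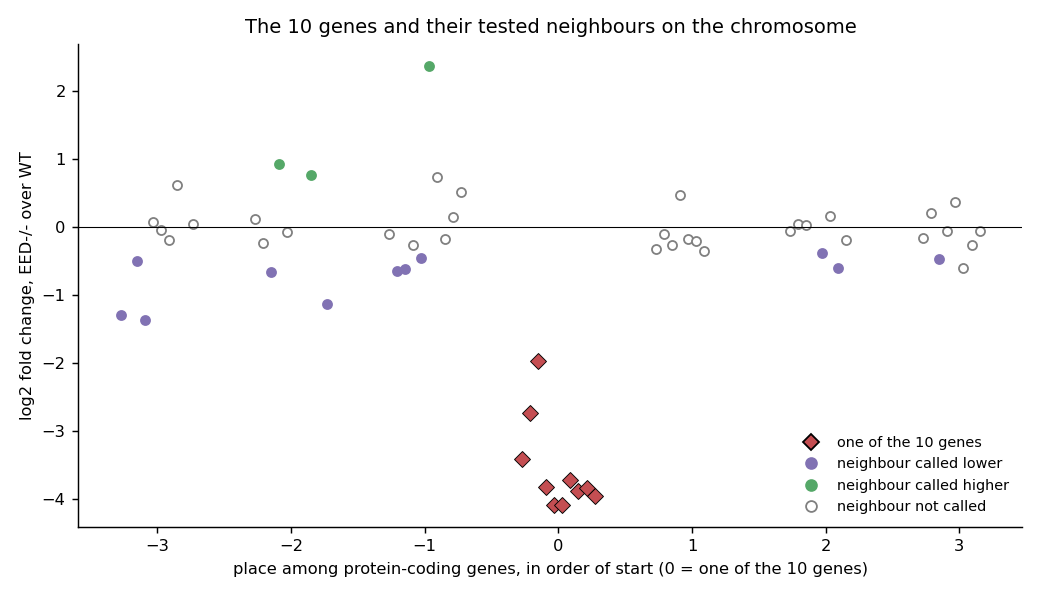
Log2 fold change of EED-/- over WT for each of the 10 genes and its tested protein-coding neighbours, 3 on each side, by gene order and not to genomic scale. The 10 genes lie between -4.09 and -1.97 and their tested neighbours between -1.37 and 2.37. Since the 10 genes were chosen for their fall, nothing is read from this difference.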

How the data were processed

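Per the labels' protocols, polyA RNA was extracted with Trizol from cerebella of mice aged 14 days and made into 3 EED-/- and 3 WT libraries with an Illumina RNA-seq kit. The genotype labels gave the groups and the titles the library numbers. The 6 ChIP-seq samples of the series were not analysed here.

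The authors deposited expected counts per gene and library for 55385 Ensembl mouse genes, not scaled between libraries; between 22.5% and 23.6% of a library's values differed from a whole number by more than 1e-06. Among the tools in the submitters' processing notes are Salmon 1.1.0, Trimmomatic 0.36 and DESeq2 1.26.0, with no role stated for any of them. Salmon splits reads shared by similar genes, so the shared words of 31 bases are given beside a gene. The authors' deposited table of log2 fold changes of EED-/- over WT, with p-values, is used here for gene symbols and, where named, for its log2 fold change and SE.

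Counts were rounded, filtered with filterByExpr (18091 genes kept), TMM-scaled and tested with edgeR 4.0.16 (estimateDisp, robust glmQLFit, glmQLFTest) in R 4.3.3, two-sided, with genotype as the sole term. Calls needed a Benjamini-Hochberg adjusted p below 0.05. The SE is the size of the log2 fold change over the root of F. CPM are counts per 1000000 scaled counts. Intervals of 95% on summed counts are exact, and like all values of amplified reads without molecular identifiers they cover counting error only. Positions, exon lengths, neighbours and shared words came from the GENCODE annotation of GRCm38, to which 99.6% of identifiers matched, and promoter windows from RefSeq (GRCm38.p6).

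The 10 genes and the 10 lists of relatives and 11 marker lists were chosen with earlier results of these data known. Named were the 10 genes, Eed, up to 3 called genes of each list of relatives by adjusted p, the nearest tested neighbours (those not called as a range) and, for the granule list, the 3 most abundant markers; the other marker lists are given as sums and counts. The most similar genes are 1 per gene and 8 for the mean profile, at 1 CPM or more, with a prior count of 2. Other genes are marked in the text as named after their values were seen. The alternatives were other scalings, filters, DESeq2 1.42.0, limma-voom (limma 3.58.1), unrounded counts, a library left out, a replicate block and other numbers of neighbours. Every pair of replicates differed by more than sampling noise, with chi-square values per degree of freedom between 8.36 and 55.2.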

Additional observations from a re-analysis of the deposited data

How the results depend on the processing

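The log2 fold changes of the 10 genes were recomputed 150 times over the settings tried. None reversed, 146 moved by less than the spread between libraries and 4 moved further, all of Cdc42bpg (-1.85 with upper-quartile factors, -1.87 with scaling by library size, -1.90 without EED-/- library 3 and -1.92 without WT library 1). Over these settings single genes ranged between -4.60 and -1.85, and the median of the 10 between -3.94 and -3.57. Upper-quartile scaling and library size alone each left 16 relatives called lower. Upper-quartile scaling left 7 neighbours called lower, and with 1 neighbour on each side 3 were called lower and 1 higher; with 5 on each side 7 were called higher. Without a library, relatives called lower ranged between 13 and 23 and relatives called higher between 15 and 31. Neighbours called lower ranged between 4 and 11 and neighbours called higher between 2 and 4. All tested genes called lower ranged between 1335 and 2476 and those called higher between 1205 and 2176. Fewer libraries were tested in these fits. Ltbp4 ranged between -0.07, without EED-/- library 2, and 0.34, without EED-/- library 3, against 0.15 with all libraries, and the cause was not tested. Trac, not called, was at -0.17 and ranged between -0.49 and 0.28 without a library, above 0 without EED-/- library 3 (0.12) or WT library 1 (0.28). Of 1092 values of 78 other named genes, 958 kept direction and call, 131 lost the call and 3 reversed. The settings given beside a gene are not always all those that ended its call.

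The deviations of same-numbered libraries from their group means correlated at 0.0276, -0.233 and -0.00125. Those of differently numbered EED-/- and WT libraries correlated at values between -0.188 and 0.198. With 3 libraries per genotype, these values cannot decide whether library numbers pair the samples. With the replicate block 6 neighbours were called lower, 17 relatives lower and 21 higher, 18 granule neuron markers lower, and 1706 of all tested genes lower and 1505 higher. The median of the 10 genes was -3.82 and Eed -1.12. Among all tested genes, higher calls made up 45.5% of the calls with TMM, 61.3% with upper-quartile factors and 58.6% with scaling by library size. Under 1 CPM, about 20 counts, the EED-/- values of Scnn1g, Ly6d and Chil5 rest on 10, 9 and 7 counts in all.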
